A study of Mus musculus with 8 samples.

Results

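Newborn mice whose mothers received nicotine at 4.5 mg/kg/day, the highest dose of the study, were compared with newborn mice whose mothers received saline. The comparison rests on 4 of the 8 arrays in the series, 2 labelled saline control and 2 labelled nicotine 4.5 mg/kg/day. They were taken by their labelled dose alone. The comparison itself and the gene lists were chosen with earlier results of these data known. All pups were of the BALB/c strain and on postnatal day 1, and the labelled tissue was the rear part of the palate, which the series title calls fetal. Each pregnant dam, the saline dams included, carried an osmotic minipump under the skin behind the shoulder, a small device that releases its fluid at a steady rate, and gave birth naturally. The labels name 2 pups and do not say how many litters an array stands for or whether pups were pooled, so the p-values measure only the spread between these samples. The other groups, nicotine at 1.5 and 3.0 mg/kg/day with 2 arrays each, are given beside the values because they share the saline arrays.

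Total RNA was read on Affymetrix arrays, on which a gene is measured by 1 or more probe sets. An intensity is the deposited brightness of a probe set on a linear scale. Log2 levels are log2(intensity + 16) after the 8 arrays had been brought to the same distribution. A log2 change is the mean of the 2 arrays at 4.5 mg/kg/day minus the mean of the 2 saline arrays, with its standard error (SE) from the fit. Because of the added 16, the log2 change of a dim gene is smaller than the ratio of its intensities. A gene was said to have risen or fallen where its Benjamini-Hochberg adjusted p, from limma over 34945 probe sets that each name 1 gene, was under 0.05. Counts of genes use 1 probe set for each of 18193 genes, the one with the highest mean level.

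Nicotine acts on nicotinic acetylcholine receptors, channels of 5 subunits that open for positively charged ions when acetylcholine or nicotine binds. The muscle type sits at the endplate, where motor nerves meet muscle fibres, and the neuronal types sit in nerve cells and some epithelia. The palate forms when the shelves on both sides of the mouth rise, meet and fuse, a step in which transforming growth factor beta 3 acts on the epithelium at the edge of the shelves. The rear part becomes the soft palate, which holds skeletal muscle, mucous glands and a covering epithelium.

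The arrays were first checked against their labelled tissue, and both saline arrays stood apart. For 19 genes of the stomach the median log2 level was 7.03 and 7.12 on the saline arrays and 4.64 and 4.60 at 4.5 mg/kg/day, where the 60th percentile of all probe sets was 5.74. For 29 intestine genes it was 9.05 and 7.69 against 4.57 and 4.58, and for 24 liver genes 8.35 and 11.51 against 4.68 and 4.86. Kidney genes (14) were high on saline replicate 2 alone, at 5.22 and 8.07 in saline, 4.53 and 4.61 at 1.5, 4.61 and 4.52 at 3.0 and 4.52 and 4.54 at 4.5 mg/kg/day. Cym, pepsinogen, albumin and the like are no genes of the palate, so both saline arrays went against their tissue label, and what follows compares the arrays labelled saline with those labelled 4.5 mg/kg/day. Lung genes (18) had medians of 4.79 and 4.90 in saline, 4.69 and 9.02 at 1.5, 9.13 and 7.30 at 3.0 and 6.23 and 6.71 at 4.5 mg/kg/day, so that the arrays at 4.5 mg/kg/day, too, held genes foreign to a palate. Genes of the tooth (9) and of the face and jaw (17) had medians of at most 4.66 and 4.99 on every array, below the 60th percentile. Actin probes at the 3' end over those at the 5' end, a ratio that rises as RNA breaks down, gave 1.695 ± 0.0692 (SD, n = 2) in saline and 1.0505 ± 0.136 (SD, n = 2) at 4.5 mg/kg/day. Genes of the Y chromosome were high on saline replicate 1 and on 3.0 mg/kg/day replicate 1, and neither array at 4.5 mg/kg/day had them. Of 4 sex-linked genes measured, 1 fell, Uty, and 0 rose. Their median log2 level was 6.09 and 5.19 in saline and 4.63 and 4.59 at 4.5 mg/kg/day. Replicates correlated over the 18193 genes, which are no independent replicates, with r = 0.928 for saline and 0.968 for 4.5 mg/kg/day. No array pair of the main comparison was free of such genes, so its results cannot be given without those arrays. The comparisons between doses at the end use no saline level, and they were also fitted without the saline arrays. The tissue levels, the RNA ratio, the levels of sex-linked genes and the dose moved together, and they cannot be told apart in a comparison of these 4 arrays.

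**Figure D1:**
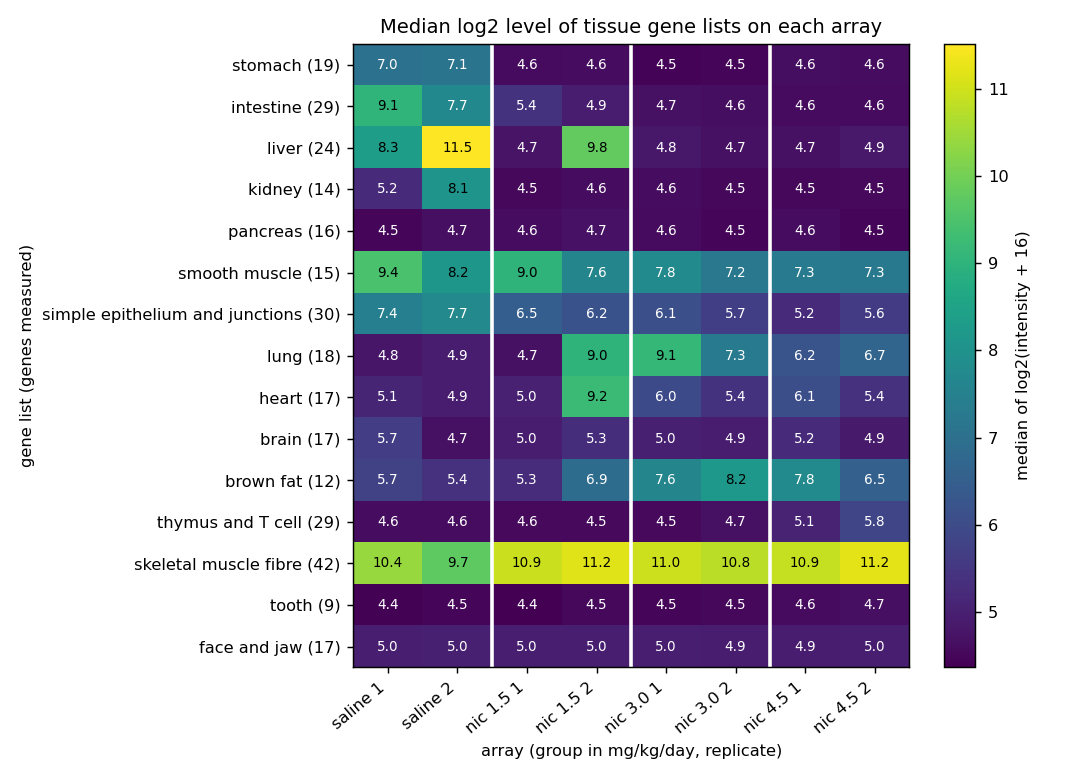
Median log2(intensity + 16) of the genes of 15 lists (rows, number of genes measured in brackets) on each of the 8 arrays (columns, labelled by group in mg/kg/day and replicate). Stomach and intestine genes are bright on both saline arrays and near the bottom of the scale at 3.0 and 4.5 mg/kg/day, kidney genes are bright on saline replicate 2 only, and the skeletal muscle row is the brightest on 7 of the 8 arrays.

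At 4.5 mg/kg/day 1120 of 18193 genes (6.16%) differed from saline, 484 of them higher (2.66%) and 636 lower (3.5%). Counted by probe set the numbers were 1857 of 34945 (5.31%), 807 higher and 1050 lower. Falls were larger than rises: among the genes called, 253 fell by a log2 change of 2 or more and 47 rose by as much, and at 4 or more there were 56 falls and 1 rise. Both arrays at 4.5 mg/kg/day lay above both saline arrays in 29.8% of all genes and below both in 23.0%, and the median change of all genes was 0.04. The split of the called probe sets moved with the scaling. On the values as deposited, without bringing the arrays to 1 distribution, 450 probe sets were higher and 1507 lower. The spread used by the test came from all 8 arrays, and leaving out 1 array moved the count of probe sets to 2305 and 1667 without saline replicates 1 and 2, to 1904 and 1917 without those of 1.5 mg/kg/day, to 409 and 411 without those of 3.0 mg/kg/day and to 329 and 275 without those of 4.5 mg/kg/day. Without saline replicate 2 and 1.5 mg/kg/day replicate 2, the 2 arrays brightest in liver genes, 824 probe sets were higher and 1668 lower. Of the lists with 1 to 3 calls in a direction, that count was 0 in at least 1 of the 8 fits with 1 array left out, except for falls in the pancreas list and rises in the dystrophin complex and fatty acid oxidation lists. Genes named here are the 14 largest rises and 14 largest falls, up to 6 of each gene list by smallest p, and single genes picked for their role. Of the 145 called genes so picked, 34 kept an adjusted p under 0.05 in all 8 such fits, 59 without either array of 3.0 mg/kg/day and 46 and 43 without replicates 1 and 2 of 4.5 mg/kg/day. A gene not said to be kept in every fit lost its call in at least 1 of them, and none of the 145 changed direction in any alternative.

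**Figure D2:**
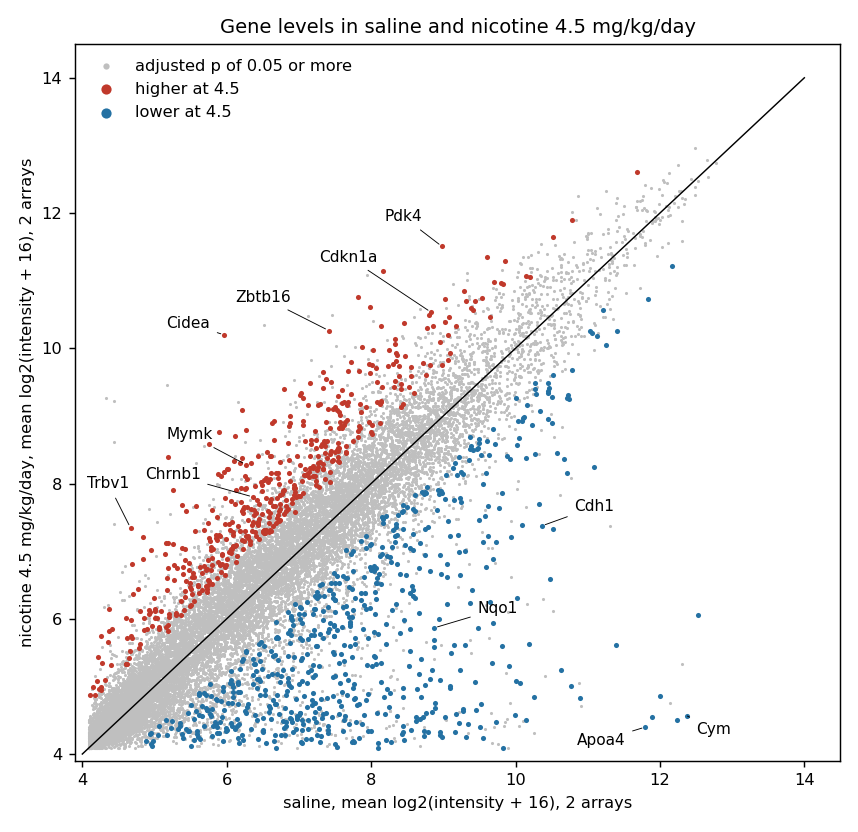
Mean log2(intensity + 16) of 18193 genes on the 2 saline arrays (horizontal) and the 2 arrays at nicotine 4.5 mg/kg/day (vertical), with the line of equal levels. Red points are the 484 higher genes, blue points the 636 lower genes and grey points all others. Blue points reach far from the line, down to Cym and Apoa4 at the lower right, while red points keep closer to it.

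Genes of the stomach and the small intestine fell together. Cym, the milk-clotting protease chymosin of the newborn stomach, had intensities of 5168 and 4999.9 in saline, 11.9 and 10.4 at 1.5, 5.2 and 6.75 at 3.0 and 8.65 and 6.33 at 4.5 mg/kg/day. Cym fell, with a log2 change of -7.82 ± 0.14 SE (limma adjusted p = 6.13e-06). Its mean log2 level was 12.38 ± 0.05 (SD, n = 2) in saline and 4.56 ± 0.11 (SD, n = 2) at 4.5 mg/kg/day. The 2 saline arrays were alike, and every nicotine array was near the bottom of the scale. Of 19 stomach genes measured, 11 fell and 0 rose, with a median change of -2.29. Gkn2, a gastrokine of the stomach lining, had 945 and 1003 in saline against 27.9 and 16.9 at 4.5 mg/kg/day. Gkn2 fell, with a log2 change of -4.61 ± 0.18 SE (limma adjusted p = 0.000129). Pga5, which encodes a pepsinogen, had 2839 and 2258 in saline against 22.8 and 40.2 at 4.5 mg/kg/day. Pga5 fell, with a log2 change of -5.77 ± 0.24 SE (limma adjusted p = 0.000175). Tff1, a trefoil peptide that protects the gastric surface, had 972 and 1113 in saline against 62.4 and 55.4 at 4.5 mg/kg/day. Tff1 fell, with a log2 change of -3.71 ± 0.16 SE (limma adjusted p = 0.000187). The proton pump subunit Atp4b of acid-secreting cells had 232 and 263 in saline against 3.97 and 4.24 at 4.5 mg/kg/day. Atp4b fell, with a log2 change of -3.62 ± 0.20 SE (limma adjusted p = 0.000631). All 5 genes were low at every nicotine dose: at 1.5 and 3.0 mg/kg/day no intensity of theirs was above 79, the highest value of Tff1. Leaving out 1 array, the number of stomach genes that fell was 11 and 10 without saline replicates 1 and 2 and 11 and 11 without those of 1.5 mg/kg/day. It was 10 and 10 without those of 3.0 and 9 and 10 without those of 4.5 mg/kg/day. In bulk tissue, fewer cells of a type and less RNA in each cell cannot be told apart.

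Intestine genes fell in 19 of 29 cases and rose in 0, with a median change of -3.28. Apoa4, an apolipoprotein of the newborn gut, had intensities of 4057 and 2762 in saline, 84.4 and 120.1 at 1.5, 8.0 and 3.11 at 3.0 and 6.29 and 3.83 at 4.5 mg/kg/day. Apoa4 fell, with a log2 change of -7.40 ± 0.23 SE (limma adjusted p = 6.99e-05). Its arrays at 1.5 mg/kg/day lay between saline and the higher doses. Fabp2, which carries fatty acids inside enterocytes, had 4770.4 and 3095 in saline, 138 and 64.8 at 1.5, 14.6 and 11.4 at 3.0 and 13.1 and 11.8 at 4.5 mg/kg/day. Fabp2 fell, with a log2 change of -7.14 ± 0.35 SE (limma adjusted p = 0.000335) and showed the same intermediate level at 1.5 mg/kg/day. Mttp, which loads lipid onto newly made lipoproteins, had 1953 and 1219 in saline against 14.2 and 28.1 at 4.5 mg/kg/day. Mttp fell, with a log2 change of -5.39 ± 0.38 SE (limma adjusted p = 0.00177). The brush-border enzymes Mep1a and Alpi changed by -4.59 ± 0.29 and -5.42 ± 0.47 (limma adjusted p = 0.00101 and 0.00335). Rbp2, which binds retinol in enterocytes, had 645 and 1252 in saline against 1.0 and 1.0 at 4.5 mg/kg/day. Rbp2 fell, with a log2 change of -5.74 ± 0.38 SE (limma adjusted p = 0.00126). Clps, the cofactor of pancreatic lipase, had 540.4 and 512 in saline against 8.24 and 6.33 at 4.5 mg/kg/day (log2 change -4.48 ± 0.14 SE, limma adjusted p = 6.99e-05) and was the only 1 of 16 pancreas genes to fall. Without 1 array the number of intestine genes that fell was 19 and 23 without saline replicates 1 and 2 and 20 and 20 without those of 1.5 mg/kg/day. It was 11 and 11 without those of 3.0 and 7 and 8 without those of 4.5 mg/kg/day. Cym, Gkn2, Pga5, Tff1, Atp4b, Apoa4, Fabp2, Mttp, Mep1a, Alpi, Rbp2 and Clps are among the 34 genes kept in every such fit.

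Liver genes had a median change of -5.31, but only Cps1 and Ttr of 24 passed the test. Without saline replicates 1 and 2 that median was -6.89 and -3.59. Ttr, which carries thyroid hormone and retinol-binding protein in blood, had 2897 and 4475 in saline, 33.4 and 3076 at 1.5, 4.18 and 2.83 at 3.0 and 7.47 and 7.21 at 4.5 mg/kg/day. Ttr fell, with a log2 change of -7.34 ± 1.60 SE (limma adjusted p = 0.0484). Saline replicate 2 and 1.5 mg/kg/day replicate 2 were the brightest liver arrays, and the gap between the arrays at 1.5 mg/kg/day entered the spread. Cps1, the entry enzyme of the urea cycle, had 1425 and 1884 in saline, 21.2 and 482 at 1.5, 10.8 and 13 at 3.0 and 22.9 and 9.13 at 4.5 mg/kg/day. Cps1 fell, with a log2 change of -5.76 ± 1.03 SE (limma adjusted p = 0.0299). Alb, serum albumin, had 3399 and 7002 in saline against 20.4 and 25.2 at 4.5 mg/kg/day and did not pass (log2 change -6.97 ± 1.93 SE, limma adjusted p = 0.084), although both groups were far apart. Without either array of 1.5 mg/kg/day 14 liver genes fell, and with another array left out the count was at most 1. Apolipoproteins fell in 7 of 18 cases, with a median of -4.10, among them Apoc3 and Apoc2. Leaving out 1 array, the number of apolipoproteins that fell was 10 and 5 without saline replicates 1 and 2, 10 and 10 without those of 1.5, 5 and 5 without those of 3.0 and 3 and 3 without those of 4.5 mg/kg/day, with a median of -5.23 and -2.84 without saline replicates 1 and 2. Apoc3 had 1545 and 873 in saline against 32.4 and 30.1 at 4.5 mg/kg/day. Apoc3 fell, with a log2 change of -4.56 ± 0.29 SE (limma adjusted p = 0.00104) and kept its call in all 8 fits. Apoc2 had 1177 and 2786 in saline against 15.1 and 8.75 at 4.5 mg/kg/day. Apoc2 fell, with a log2 change of -6.07 ± 0.75 SE (limma adjusted p = 0.0109). Fabp1, which liver and gut share, had 3860.2 and 5646 in saline, 43.7 and 495 at 1.5, 8.56 and 8.13 at 3.0 and 8.77 and 4.46 at 4.5 mg/kg/day. Fabp1 fell, with a log2 change of -7.73 ± 0.85 SE (limma adjusted p = 0.00728). No kidney gene of 14 passed in the fit of all 8 arrays. The kidney median was -1.77, and ran from -3.42 to -0.47 with 1 array left out. Both arrays at 4.5 mg/kg/day were below both saline arrays in 11 kidney genes, beside 23.0% of all genes. Calb1 had 63.5 and 577 in saline against 7.19 and 6.46 at 4.5 mg/kg/day (log2 change -3.12 ± 0.81 SE, limma adjusted p = 0.0728), with saline replicate 2 far above saline replicate 1.

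Genes of simple epithelia and their junctions fell in 18 of 30 cases and rose in 0, with a median change of -2.37. Krt20, a keratin of gut epithelium, had 209.7 and 189 in saline, 18.9 and 19.2 at 1.5, 16.3 and 15.6 at 3.0 and 14.2 and 11.1 at 4.5 mg/kg/day. Krt20 fell, with a log2 change of -2.80 ± 0.14 SE (limma adjusted p = 0.000344). Spint1, St14 and Spint2, a membrane protease with its inhibitors, form a set. Spint1 had 336 and 254 in saline, 91 and 75.1 at 1.5, 55.4 and 40.9 at 3.0 and 25.6 and 37.6 at 4.5 mg/kg/day. Spint1 fell, with a log2 change of -2.57 ± 0.24 SE (limma adjusted p = 0.00413). St14, the protease matriptase, changed by -1.89 ± 0.17 and Spint2 by -2.69 ± 0.27 (limma adjusted p = 0.0041 and 0.0053). Elf3, an epithelial transcription factor, had 194 and 174 in saline, 38.7 and 21.2 at 1.5, 25.7 and 21.1 at 3.0 and 6.47 and 16.5 at 4.5 mg/kg/day. Elf3 fell, with a log2 change of -2.77 ± 0.27 SE (limma adjusted p = 0.00491). In Spint1 and Elf3 the arrays at 4.5 mg/kg/day were the lowest of the 8, and Krt20, Spint1, St14, Spint2 and Elf3 kept their calls in all 8 fits. Cdh1, E-cadherin, which joins epithelial cells and is also a palate gene, had 1432 and 1147 in saline, 499 and 468 at 1.5, 460.0 and 196 at 3.0 and 101 and 195 at 4.5 mg/kg/day. Cdh1 fell, with a log2 change of -2.99 ± 0.41 SE (limma adjusted p = 0.0159). Its 2 groups did not overlap, and its adjusted p was 0.0837 without replicate 1 of 4.5 mg/kg/day. Epithelial genes that line the mouth are another group: of 30 genes of keratinized epithelium 0 passed in either direction, with a median of 0.22. Without 1 array the number of genes of simple epithelium and junctions that fell was 19 and 17 without saline replicates 1 and 2 and 20 and 20 without those of 1.5 mg/kg/day. It was 13 and 13 without those of 3.0 and 5 and 6 without those of 4.5 mg/kg/day.

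In the salivary and mucous gland list 5 of 23 genes fell and 0 rose, with a median of -0.03, where 3.5% of all genes fell. In the fits with 1 array left out, the number that fell was 4 and 3 without saline replicates 1 and 2, 5 and 5 without those of 1.5, 3 and 3 without those of 3.0 and 2 and 4 without those of 4.5 mg/kg/day. Bpifb1, a secreted protein of airway and oral glands, had 1154 and 1259 in saline, 22.1 and 14.1 at 1.5, 10.5 and 20.2 at 3.0 and 10.4 and 14.2 at 4.5 mg/kg/day. Bpifb1 fell, with a log2 change of -5.40 ± 0.22 SE (limma adjusted p = 0.000158). Muc5b, a gel-forming mucin, had 388 and 428 in saline against 9.28 and 32.7 at 4.5 mg/kg/day. Muc5b fell, with a log2 change of -3.48 ± 0.33 SE (limma adjusted p = 0.00457). Bpifb1 and Muc5b kept their calls in all 8 fits. Tff2, also counted as a stomach gene, had 79.4 and 129.8 in saline against 1.52 and 12 at 4.5 mg/kg/day. Tff2 fell, with a log2 change of -2.29 ± 0.30 SE (limma adjusted p = 0.0129). Smooth muscle genes fell in 3 of 15 cases, beside 3.5% of all genes, with a median of -1.08. Cnn1, calponin of smooth muscle, had 1062 and 287 in saline, 208 and 69 at 1.5, 62.4 and 29 at 3.0 and 26.7 and 27.6 at 4.5 mg/kg/day. Cnn1 fell, with a log2 change of -3.61 ± 0.70 SE (limma adjusted p = 0.0364). The saline arrays differed by more than 3-fold in Cnn1, and with 1 array left out the number of smooth muscle genes that fell was 0 and 4 without saline replicates 1 and 2 and 4 and 4 without those of 1.5 mg/kg/day. It was 0 and 0 without those of 3.0 and 0 and 0 without those of 4.5 mg/kg/day. The median was -0.43 and -1.78 without saline replicates 1 and 2. The gut holds glands, simple epithelium and smooth muscle, and the part of the gut signal on the saline arrays in these falls was not tested.

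The list of enzymes that handle nicotine or other drugs does not set those of nicotine apart. Its counts therefore do not show a change in the breakdown of nicotine. Of its 24 genes measured, 7 fell and 0 rose, where 3.5% of all genes fell, with a median change of -0.40. That median was -1.20 and -0.062 without saline replicates 1 and 2, and the number that fell was 9 and 6 without saline replicates 1 and 2, 7 and 7 without those of 1.5, 5 and 5 without those of 3.0 and 4 and 4 without those of 4.5 mg/kg/day. Cyp2c65, a cytochrome of the gut, had 156 and 143 in saline, 1.35 and 2.64 at 1.5, 2.31 and 3.48 at 3.0 and 5.48 and 3.8 at 4.5 mg/kg/day. Cyp2c65 fell, with a log2 change of -2.91 ± 0.14 SE (limma adjusted p = 0.000294). Ugt2b34, which joins glucuronic acid to its substrates, had 1081 and 1174 in saline, 32 and 97.1 at 1.5, 6.21 and 6.81 at 3.0 and 4.69 and 8.36 at 4.5 mg/kg/day. Ugt2b34 fell, with a log2 change of -5.64 ± 0.34 SE (limma adjusted p = 0.000877). Ugt2b5 had 185 and 252 in saline against 1.57 and 2.42 at 4.5 mg/kg/day (log2 change -3.59 ± 0.28 SE, limma adjusted p = 0.00244) and the sulfotransferase Sult1d1 had 573 and 577 in saline against 2.82 and 5.13 at 4.5 mg/kg/day. Sult1d1 fell, with a log2 change of -4.84 ± 0.29 SE (limma adjusted p = 0.000871). These 4 kept their calls in each of the 8 fits. Of the targets of NRF2, the factor that switches on defence against oxidants, 5 of 27 fell and 0 rose (median -0.59). The number of NRF2 targets that fell was 9 and 4 without saline replicates 1 and 2, 4 and 4 without those of 1.5, 1 and 1 without those of 3.0 and 2 and 1 without those of 4.5 mg/kg/day in the fits with 1 array left out, and 1 rose without saline replicate 2. Nqo1, a quinone reductase often used to read NRF2 activity, had 541 and 412 in saline, 20.9 and 44.2 at 1.5, 21.5 and 22.3 at 3.0 and 36.2 and 42.4 at 4.5 mg/kg/day. Nqo1 fell, with a log2 change of -3.01 ± 0.24 SE (limma adjusted p = 0.00282) and kept its call in all 8 fits. All 6 nicotine arrays lay far below both saline arrays in it. Its mean log2 level was 8.87 ± 0.32 (SD, n = 2) in saline and 5.87 ± 0.12 (SD, n = 2) at 4.5 mg/kg/day. Gpx2, the glutathione peroxidase of gut epithelium, changed by -2.09 ± 0.32 (limma adjusted p = 0.02). Gclc, which makes the first step of glutathione synthesis, had 196 and 331 in saline, 93.1 and 119.6 at 1.5, 96 and 101 at 3.0 and 79.5 and 96.1 at 4.5 mg/kg/day. Gclc fell, with a log2 change of -1.22 ± 0.25 SE (limma adjusted p = 0.0411). The adjusted p of Gpx2 and Gclc rose to 0.0926 and 0.168 without 1 array of 4.5 mg/kg/day. Several of these enzymes are also made in gut and liver, and the part of those organs in the falls was not tested.

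Genes of cholesterol synthesis fell in 7 of 17 cases and rose in 0 (median -1.48, against -0.87 at 1.5 and -0.65 at 3.0 mg/kg/day, each against the same saline arrays). Cyp51, which removes a methyl group from lanosterol, had 514 and 497 in saline, 196 and 136 at 1.5, 168 and 171 at 3.0 and 93.7 and 69.1 at 4.5 mg/kg/day. Cyp51 fell, with a log2 change of -2.30 ± 0.24 SE (limma adjusted p = 0.00594). Msmo1, which acts in the next steps, had 502 and 496 in saline, 248 and 86.5 at 1.5, 171 and 158 at 3.0 and 36.1 and 54 at 4.5 mg/kg/day. Msmo1 fell, with a log2 change of -2.95 ± 0.45 SE (limma adjusted p = 0.02). Idi1, which makes the isoprenoid building block, had 433 and 663 in saline against 99 and 59.3 at 4.5 mg/kg/day. Idi1 fell, with a log2 change of -2.43 ± 0.36 SE (limma adjusted p = 0.0194). In Cyp51 and Msmo1 both arrays at 4.5 mg/kg/day were the lowest of the 8. With 1 array left out, the number of cholesterol synthesis genes that fell was 5 and 4 without saline replicates 1 and 2 and 8 and 8 without those of 1.5 mg/kg/day. It was 1 and 1 without those of 3.0 and 4 and 0 without those of 4.5 mg/kg/day, and Cyp51 missed the threshold only without replicate 2 of 4.5 mg/kg/day (adjusted p = 0.0506). Genes of the unfolded protein response, chaperones of the endoplasmic reticulum, fell in 5 of 23 cases and rose in 0. Their number was 5 and 4 without saline replicates 1 and 2, 5 and 5 without those of 1.5, 2 and 2 without those of 3.0 and 1 and 2 without those of 4.5 mg/kg/day. Pdia3, which forms disulfide bonds, had 1358 and 1353 in saline, 585 and 573 at 1.5, 572 and 482 at 3.0 and 543 and 405 at 4.5 mg/kg/day. Pdia3 fell, with a log2 change of -1.50 ± 0.17 SE (limma adjusted p = 0.00802). Sdf2l1 had 164 and 186 in saline, 42.7 and 56.7 at 1.5, 33.3 and 55.5 at 3.0 and 30.7 and 39.3 at 4.5 mg/kg/day. Sdf2l1 fell, with a log2 change of -1.74 ± 0.22 SE (limma adjusted p = 0.011). Of 40 cell cycle genes 2 fell and 0 rose (median -0.54), where 3.5% of all genes fell. The count of falls was 8 and 0 without saline replicates 1 and 2, 3 and 3 without those of 1.5, 0 and 0 without those of 3.0 and 0 and 0 without those of 4.5 mg/kg/day, and the median was -0.80 and -0.18 without saline replicates 1 and 2 and -0.26 without replicate 2 of 4.5 mg/kg/day. Hells, a chromatin remodeller of dividing cells, had 137 and 151 in saline, 83.1 and 48.5 at 1.5, 59.2 and 66.2 at 3.0 and 29.4 and 31.2 at 4.5 mg/kg/day. Hells fell, with a log2 change of -1.63 ± 0.25 SE (limma adjusted p = 0.0204). Mcm4, a subunit of the replicative helicase, had 296 and 321 in saline, 232 and 147 at 1.5, 177 and 194 at 3.0 and 91.9 and 93.9 at 4.5 mg/kg/day. Mcm4 fell, with a log2 change of -1.43 ± 0.25 SE (limma adjusted p = 0.0265). For Hells and Mcm4, too, the lowest values of the 8 arrays were those at 4.5 mg/kg/day, and their adjusted p reached 0.0997 and 0.116 with 1 array left out.

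**Figure D3:**
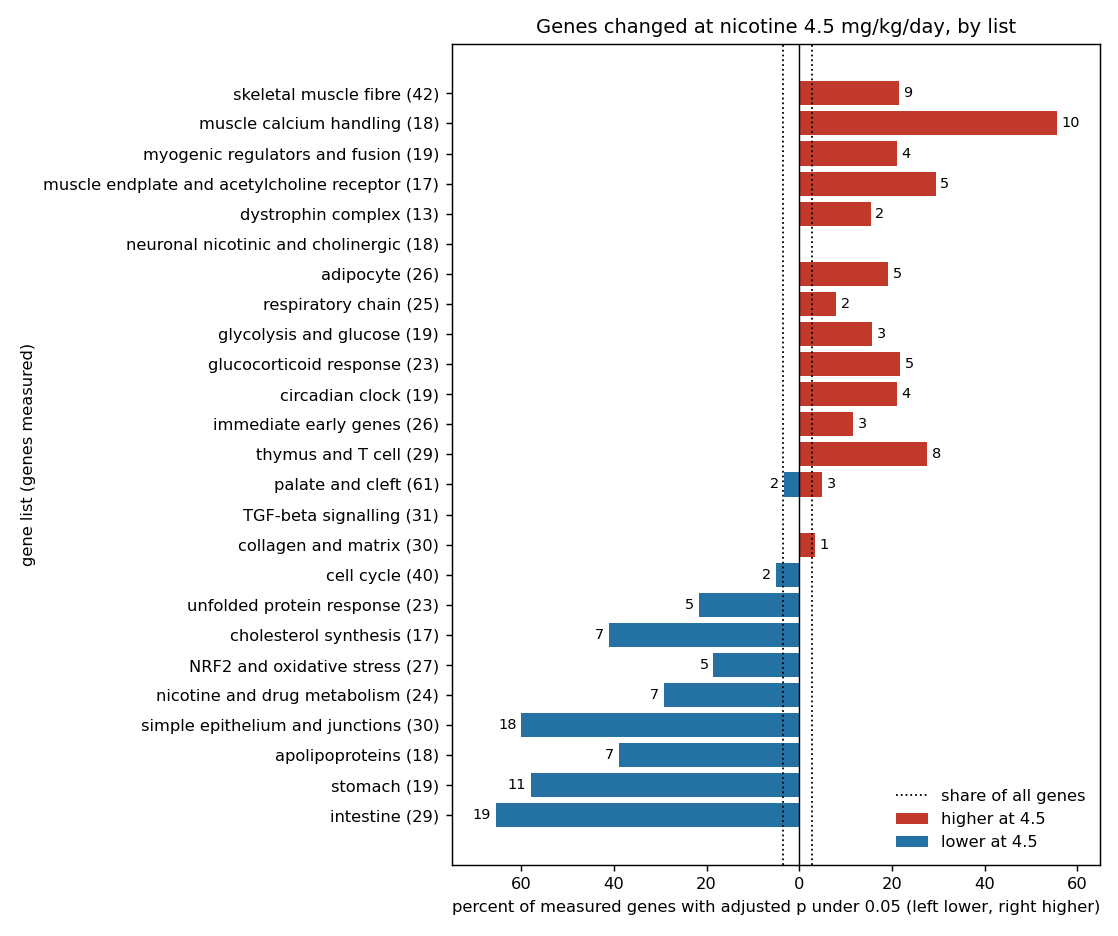
Share of the measured genes of 25 lists that rose (red, to the right) or fell (blue, to the left) at nicotine 4.5 mg/kg/day against saline at a limma adjusted p under 0.05, with the number of genes at each bar and the number measured in brackets. Dotted lines mark the shares of all genes, 2.66% higher and 3.5% lower. Muscle calcium handling reaches farthest to the right, with 10 of 18 genes, and intestine farthest to the left, with 19 of 29.

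Skeletal muscle genes were higher. Over the 5 muscle lists together, 29 of 108 genes rose and 0 fell, where 2.66% of all genes rose. In the skeletal muscle fibre list all 42 changes were positive, 9 passed the test and the median was 0.98, against 0.83 at 1.5 and 0.84 at 3.0 mg/kg/day with the same saline arrays. Mymk, the fusion protein that lets myoblasts join into fibres, had intensities of 74.2 and 59.2 in saline, 294 and 267 at 1.5, 247 and 192 at 3.0 and 287 and 282 at 4.5 mg/kg/day. Mymk rose, with a log2 change of 2.02 ± 0.17 SE (limma adjusted p = 0.00335). Its mean log2 level was 6.27 ± 0.12 (SD, n = 2) in saline and 8.28 ± 0.03 (SD, n = 2) at 4.5 mg/kg/day, and every nicotine array was above both saline arrays. Sgca, alpha-sarcoglycan of the dystrophin complex that anchors the fibre's membrane, had 77.7 and 63.3 in saline, 238 and 216 at 1.5, 243 and 208 at 3.0 and 235 and 349 at 4.5 mg/kg/day. Sgca rose, with a log2 change of 1.97 ± 0.22 SE (limma adjusted p = 0.0082). Both Mymk and Sgca kept their calls in all 8 fits with 1 array left out. Myoz1, a protein of the Z disc of fast fibres, had 1021 and 864 in saline, 1578 and 2102 at 1.5, 2489.8 and 2103 at 3.0 and 2624 and 2593 at 4.5 mg/kg/day. Myoz1 rose, with a log2 change of 1.44 ± 0.18 SE (limma adjusted p = 0.0111). Pygm, the muscle enzyme that breaks down glycogen, had 328 and 379 in saline, 817 and 1366 at 1.5, 1485 and 984 at 3.0 and 1126 and 1534 at 4.5 mg/kg/day. Pygm rose, with a log2 change of 1.92 ± 0.28 SE (limma adjusted p = 0.0177). Tcap, which caps titin in the Z disc, had 293 and 211 in saline, 348 and 937 at 1.5, 895 and 702 at 3.0 and 1126 and 2066 at 4.5 mg/kg/day. Tcap rose, with a log2 change of 2.63 ± 0.49 SE (limma adjusted p = 0.0321), with replicate 2 of 4.5 mg/kg/day the highest of the 8.

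Of the genes that move calcium in muscle, 10 of 18 rose, with a median of 1.45. Cacna1s, the voltage sensor in the membrane tubules, had 101 and 77.7 in saline, 196 and 301 at 1.5, 301 and 262 at 3.0 and 292 and 337 at 4.5 mg/kg/day. Cacna1s rose, with a log2 change of 1.80 ± 0.21 SE (limma adjusted p = 0.0082). Ryr1, the calcium release channel it opens, had 347 and 295 in saline, 692 and 1074 at 1.5, 1102 and 914 at 3.0 and 1064 and 1058 at 4.5 mg/kg/day. Ryr1 rose, with a log2 change of 1.72 ± 0.20 SE (limma adjusted p = 0.00872). Hrc, which binds calcium in the store, had 333 and 269.6 in saline against 1018 and 979 at 4.5 mg/kg/day. Hrc rose, with a log2 change of 1.73 ± 0.23 SE (limma adjusted p = 0.0141). In these 3 genes the arrays at 4.5 mg/kg/day lay close together and above both saline arrays. In the whole list they were above both saline arrays in 17 of 18 genes, beside 29.8% of all genes. Tmem38a and Cacnb1, a potassium channel of the store and a subunit of the voltage sensor, changed by 2.12 ± 0.30 and 1.57 ± 0.22 (limma adjusted p = 0.0162 and 0.0163). Of 19 myogenic genes 4 rose (median 0.94): Mymk, Cdh15, Itga7 and Chrng. Their number was 9 and 4 without saline replicates 1 and 2, 4 and 4 without those of 1.5, 2 and 2 without those of 3.0 and 1 and 1 without those of 4.5 mg/kg/day in the fits with 1 array left out. Cdh15, M-cadherin, had 50.3 and 35.6 in saline against 104 and 109.9 at 4.5 mg/kg/day. Cdh15 rose, with a log2 change of 1.23 ± 0.15 SE (limma adjusted p = 0.0111). Itga7, a laminin receptor, changed by 1.11 ± 0.16 (limma adjusted p = 0.0176). In the dystrophin complex 2 of 13 rose, Sgca and the membrane repair protein Dysf (log2 change 1.31 ± 0.19 SE, limma adjusted p = 0.0174), and without 1 array the number was 6 and 2 without saline replicates 1 and 2, 3 and 3 without those of 1.5, 1 and 1 without those of 3.0 and 1 and 1 without those of 4.5 mg/kg/day. These counts rest on few arrays. The number of skeletal muscle fibre genes that rose was 24 and 2 without saline replicates 1 and 2 and 12 and 12 without those of 1.5 mg/kg/day. It was 2 and 2 without those of 3.0 and 1 and 0 without those of 4.5 mg/kg/day, and that of muscle calcium handling genes was 15 and 6 without saline replicates 1 and 2 and 11 and 11 without those of 1.5 mg/kg/day. It was 4 and 4 without those of 3.0 and 4 and 0 without those of 4.5 mg/kg/day. Stomach, intestine and liver genes were high on the saline arrays, against which these rises are measured, and their part in the rises was not tested.

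The muscle receptor for nicotine and acetylcholine belongs to the same tissue. Of 17 genes of the endplate and the receptor, 5 rose and 0 fell, with a median of 0.68, where 2.66% of all genes rose. Chrnb1, the beta subunit, had 83.7 and 61.9 in saline, 161 and 165 at 1.5, 156 and 145 at 3.0 and 191 and 206 at 4.5 mg/kg/day. Chrnb1 rose, with a log2 change of 1.44 ± 0.16 SE (limma adjusted p = 0.00689). Chrng, the gamma subunit of the fetal receptor, had 46.4 and 16.2 in saline, 112 and 98.4 at 1.5, 73.8 and 65 at 3.0 and 116 and 103 at 4.5 mg/kg/day. Chrng rose, with a log2 change of 1.62 ± 0.27 SE (limma adjusted p = 0.0243), with saline replicate 2 the lowest. Chrne, the epsilon subunit that replaces gamma after birth, was near the bottom of the scale, with 3.72 and 2.09 in saline, 9.54 and 6.01 at 1.5, 4.68 and 3.74 at 3.0 and 14 and 14.6 at 4.5 mg/kg/day. Chrne rose, with a log2 change of 0.73 ± 0.15 SE (limma adjusted p = 0.0401). Chrnd, the delta subunit, had 48 and 38.3 in saline, 60.7 and 71.7 at 1.5, 64.9 and 73.5 at 3.0 and 73.1 and 68.7 at 4.5 mg/kg/day. Chrnd rose, with a log2 change of 0.72 ± 0.14 SE (limma adjusted p = 0.0365). Chrna1, the alpha subunit that binds the ligand, had 218 and 87.5 in saline, 301 and 262 at 1.5, 439 and 352 at 3.0 and 356 and 444 at 4.5 mg/kg/day and did not pass. Chrna1 had a log2 change of 1.53 ± 0.36 SE (limma adjusted p = 0.0595), with the saline arrays more than 2-fold apart. Rapsn, which clusters the receptors under the nerve ending, had 18.8 and 15.5 in saline, 36.5 and 55.8 at 1.5, 47 and 41.5 at 3.0 and 49.3 and 49 at 4.5 mg/kg/day. Rapsn rose, with a log2 change of 1.10 ± 0.16 SE (limma adjusted p = 0.0182). Both arrays at 4.5 mg/kg/day were above both saline arrays in all 6 genes. In the whole list they were above in 10 of 17 genes and below in 2, beside 29.8% and 23.0% of all genes. With 1 array left out, the number of genes of the muscle endplate and acetylcholine receptor list that rose was 5 and 3 without saline replicates 1 and 2 and 4 and 4 without those of 1.5 mg/kg/day. It was 1 and 1 without those of 3.0 and 1 and 0 without those of 4.5 mg/kg/day. Without replicate 2 of 4.5 mg/kg/day the adjusted p of Chrnb1 was 0.0524.

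Muscle genes share a binding motif for myogenic factors such as MyoD, the E-box CAGCTG. Promoter sequences of 4 of the genes that rose are shown. Only entries that hold the motif were taken for this display, so its presence in them is no result. Each runs 5′ to 3′ over the 250 bases before the gene's start, from RefSeq on build GRCm38.p6, with every CAGCTG in capitals. The motif reads the same on both strands, and no other motif was searched.
Chrng, chr1:87205561-87205810, plus strand: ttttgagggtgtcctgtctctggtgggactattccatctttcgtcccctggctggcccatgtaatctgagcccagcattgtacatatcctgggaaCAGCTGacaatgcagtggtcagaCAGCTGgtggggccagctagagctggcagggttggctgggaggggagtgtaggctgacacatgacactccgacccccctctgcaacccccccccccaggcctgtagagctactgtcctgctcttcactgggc
Chrne, chr11:70619195-70619444, minus strand: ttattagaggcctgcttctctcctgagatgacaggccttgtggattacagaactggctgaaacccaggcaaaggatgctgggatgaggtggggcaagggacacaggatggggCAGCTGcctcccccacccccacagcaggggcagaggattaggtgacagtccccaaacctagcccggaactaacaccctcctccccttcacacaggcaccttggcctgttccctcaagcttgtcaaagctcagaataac
Cacna1s, chr1:136052561-136052810, plus strand: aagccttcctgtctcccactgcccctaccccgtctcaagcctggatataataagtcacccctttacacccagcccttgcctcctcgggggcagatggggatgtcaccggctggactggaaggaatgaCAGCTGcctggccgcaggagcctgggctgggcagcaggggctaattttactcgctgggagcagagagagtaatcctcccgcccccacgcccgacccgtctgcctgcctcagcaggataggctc
Pygm, chr19:6384158-6384407, plus strand: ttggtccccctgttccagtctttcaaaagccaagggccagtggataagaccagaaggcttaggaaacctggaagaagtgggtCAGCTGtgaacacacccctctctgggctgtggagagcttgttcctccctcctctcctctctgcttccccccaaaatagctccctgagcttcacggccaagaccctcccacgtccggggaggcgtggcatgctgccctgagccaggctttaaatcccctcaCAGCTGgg
In Chrng the 2 motifs start 155 and 132 bases before the gene's start, in Chrne 1 starts 138 bases before it, in Cacna1s 1 starts 123 bases before it and in Pygm they start 168 and 8 bases before it. Of all 27025 genes with a promoter entry, 3979 (14.7%) held the motif in this window. Among list members with an entry it was in 15 of 31 skeletal muscle fibre genes (48.4%), 5 of 10 muscle calcium handling genes (50.0%), 6 of 11 endplate and receptor genes (54.5%) and 1 of 10 myogenic genes. A match is a description of the letters and not of binding.

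The neuronal receptors showed no change that passed the test. In the list of 18 neuronal nicotinic and cholinergic genes 0 rose and 0 fell, with a median change of -0.05. Most were near the bottom of the scale: the median log2 level of the list was 4.95 and 4.83 in saline, 4.78 and 4.91 at 1.5, 4.97 and 4.92 at 3.0 and 5.01 and 4.70 at 4.5 mg/kg/day. Chrna4, part of the main receptor of the brain, had 27.8 and 27.4 in saline, 14.7 and 16.4 at 1.5, 14.7 and 15.7 at 3.0 and 15 and 9.62 at 4.5 mg/kg/day. Chrna4 had a log2 change of -0.54 ± 0.15 SE (limma adjusted p = 0.0895), and all nicotine arrays were below the saline arrays. Chrna7, which forms a receptor of its own, had 25 and 9.46 in saline, 5.9 and 7.0 at 1.5, 8.6 and 6.38 at 3.0 and 6.59 and 5.72 at 4.5 mg/kg/day. Chrna7 had a log2 change of -0.49 ± 0.20 SE (limma adjusted p = 0.194), and only saline replicate 1 stood above the others. Chrna3, of autonomic nerve cells, had 28.2 and 20.4 in saline, 31.9 and 22 at 1.5, 20.5 and 16.1 at 3.0 and 28.9 and 23.8 at 4.5 mg/kg/day. Chrna3 had a log2 change of 0.19 ± 0.19 SE (limma adjusted p = 0.578), and the saline and 4.5 mg/kg/day arrays overlapped. Chrna9, known from hair cells and also found in other tissues, had 21.1 and 10.5 in saline, 11.3 and 37.8 at 1.5, 73.1 and 59.1 at 3.0 and 57.3 and 30.2 at 4.5 mg/kg/day. Chrna9 had a log2 change of 1.01 ± 0.34 SE (limma adjusted p = 0.129), with its highest values at 3.0 mg/kg/day. At these low intensities a small change could not be detected, and the missing calls do not show equal levels.

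**Figure D4:**
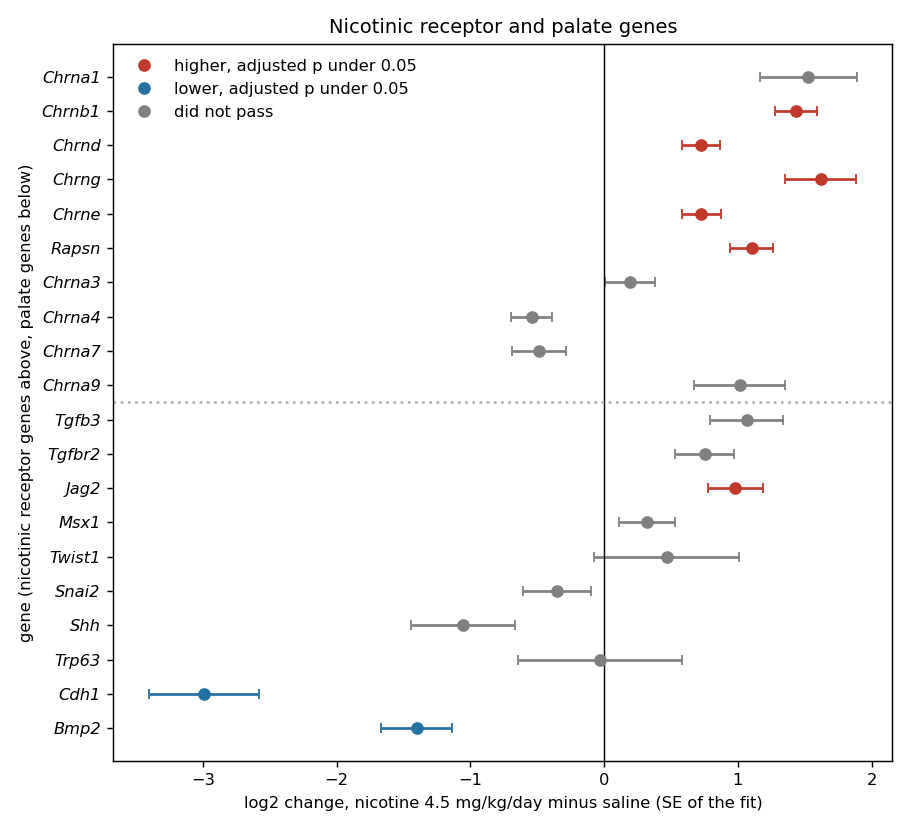
Log2 change at nicotine 4.5 mg/kg/day against saline, with the SE of the fit, for 9 nicotinic receptor subunits and Rapsn (above the dotted line) and for 10 palate genes (below). Red points passed the test as higher, blue points as lower and grey points did not pass. The muscle subunits and Rapsn lie between 0.72 and 1.62, the neuronal subunits between -0.54 and 1.01, and Cdh1 lies lowest at -2.99.

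Genes of palate formation gave few calls in the fit of all 8 arrays. Of 61 genes tied to palate growth or to cleft palate, 3 rose and 2 fell (4.92% and 3.28%, beside 2.66% and 3.5% of all genes), with a median change of 0.10. The genes that rose were Mn1, Lhx8 and Jag2. Both counts went up or down with the array left out, so they are not stable, while the list's median ran from -0.06 to 0.12. Jag2, a Notch ligand of the palatal epithelium, had 40.2 and 23.6 in saline, 69.1 and 73.2 at 1.5, 72.1 and 63.5 at 3.0 and 55.4 and 83.4 at 4.5 mg/kg/day. Jag2 rose, with a log2 change of 0.98 ± 0.21 SE (limma adjusted p = 0.0446). Mn1, a transcription cofactor of the rear palate, had 105 and 63.2 in saline, 151 and 147 at 1.5, 152 and 123 at 3.0 and 174 and 322 at 4.5 mg/kg/day. Mn1 rose, with a log2 change of 1.53 ± 0.31 SE (limma adjusted p = 0.0405). Lhx8, a transcription factor of the first arch, was dim, with 6.37 and 1.16 in saline, 11.8 and 7.63 at 1.5, 15.8 and 23.3 at 3.0 and 27.9 and 18.5 at 4.5 mg/kg/day. Lhx8 rose, with a log2 change of 1.07 ± 0.22 SE (limma adjusted p = 0.0415). Bmp2, a bone morphogenetic protein, fell, as did Cdh1. Its intensities were 209.6 and 148 in saline, 103 and 65.3 at 1.5, 63.2 and 51 at 3.0 and 44.1 and 53.8 at 4.5 mg/kg/day. Bmp2 fell, with a log2 change of -1.40 ± 0.27 SE (limma adjusted p = 0.0347). Jag2, Mn1, Lhx8, Bmp2 and Cdh1 lost their calls in some fits with 1 array left out, at an adjusted p of up to 0.165. Tgfb3, the growth factor needed for fusion, had 118 and 67.3 in saline, 274 and 196 at 1.5, 183 and 159 at 3.0 and 171 and 195 at 4.5 mg/kg/day and did not pass. Tgfb3 had a log2 change of 1.07 ± 0.27 SE (limma adjusted p = 0.0719), although every nicotine array was above both saline arrays. Its receptor Tgfbr2 had 549.9 and 424 in saline against 821 and 764 at 4.5 mg/kg/day. Tgfbr2 had a log2 change of 0.75 ± 0.22 SE (limma adjusted p = 0.0944). Tgfbr3 had 505 and 269 in saline, 552 and 623 at 1.5, 559 and 600.0 at 3.0 and 792 and 858 at 4.5 mg/kg/day. Tgfbr3 had a log2 change of 1.18 ± 0.28 SE (limma adjusted p = 0.0618). In the TGF-beta signalling list 0 of 31 passed in either direction in the fit of all 8 arrays. The median of that list was 0.15, and it ran from 0.12 to 0.24 with 1 array left out. Id2, an inhibitor of differentiation, had 504 and 900.0 in saline against 130.1 and 276 at 4.5 mg/kg/day (log2 change -1.62 ± 0.41 SE, limma adjusted p = 0.0695). Shh, which patterns the palate's ridges, had 164 and 85.4 in saline, 114 and 124 at 1.5, 139 and 70.8 at 3.0 and 60.5 and 28.3 at 4.5 mg/kg/day. Shh had a log2 change of -1.06 ± 0.39 SE (limma adjusted p = 0.157). Ihh, its relative in gut and cartilage, had 46 and 49.2 in saline against 6.35 and 6.06 at 4.5 mg/kg/day. Ihh fell, with a log2 change of -1.42 ± 0.29 SE (limma adjusted p = 0.0419). Msx1, Snai2, Twist1 and Trp63, further genes whose loss is tied to clefts or to palate mesenchyme and epithelium, did not pass. Their log2 changes were 0.32 ± 0.21, -0.35 ± 0.25, 0.47 ± 0.54 and -0.03 ± 0.61, with limma adjusted p of 0.391, 0.439, 0.646 and 0.983.

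Matrix and skeletal genes gave few calls. Of 30 collagen and matrix genes 1 rose in the fit of all 8 arrays, where 2.66% of all genes rose. In this list 27 changes were positive and 3 negative, beside 54.4% positive changes over all genes. The list's median was 0.50, against 0.04 over all genes, and ran from 0.16 to 0.88 with 1 array left out. The gene that rose was Col22a1, a collagen of muscle-tendon junctions. Its intensities were 68 and 21.4 in saline, 147 and 159.7 at 1.5, 132 and 106 at 3.0 and 168 and 128 at 4.5 mg/kg/day. Col22a1 rose, with a log2 change of 1.68 ± 0.32 SE (limma adjusted p = 0.0338). Tnmd, tenomodulin of tendon, had 325 and 79.1 in saline, 977 and 528 at 1.5, 966 and 737 at 3.0 and 987 and 706 at 4.5 mg/kg/day and did not pass. Tnmd had a log2 change of 2.29 ± 0.61 SE (limma adjusted p = 0.076). Mmp13, a collagenase of bone and cartilage, had 124 and 20.8 in saline, 381 and 275 at 1.5, 208 and 268 at 3.0 and 387 and 395 at 4.5 mg/kg/day. Mmp13 rose, with a log2 change of 2.59 ± 0.53 SE (limma adjusted p = 0.0424), and saline replicate 2 was the lowest of the 8 arrays in Col22a1, Tnmd and Mmp13. Of 12 bone genes 1 rose, where 2.66% of all genes rose, and of 21 cartilage genes 0 passed. The bone gene was the matrix protein Omd (log2 change 1.66 ± 0.34 SE, limma adjusted p = 0.0412). Among Hox genes, which mark position along the body, 2 of 33 rose and 2 fell, where 2.66% of all genes rose and 3.5% fell. The number that rose was 1 and 0 without saline replicates 1 and 2, 3 and 3 without those of 1.5, 0 and 0 without those of 3.0 and 0 and 0 without those of 4.5 mg/kg/day, and the number that fell was 5 and 1 without saline replicates 1 and 2, 2 and 2 without those of 1.5, 0 and 0 without those of 3.0 and 0 and 0 without those of 4.5 mg/kg/day. Hoxa4 had 23.1 and 15.8 in saline, 18.2 and 21.4 at 1.5, 92.3 and 90.5 at 3.0 and 59.4 and 40.4 at 4.5 mg/kg/day. Hoxa4 rose, with a log2 change of 1.02 ± 0.18 SE (limma adjusted p = 0.0276). Hoxa3 had 51.6 and 57.1 in saline, 33.9 and 53.9 at 1.5, 132 and 128 at 3.0 and 122 and 89.4 at 4.5 mg/kg/day. Hoxa3 rose, with a log2 change of 0.95 ± 0.20 SE (limma adjusted p = 0.0462). Hoxb9 had 27.4 and 33.2 in saline, 9.36 and 15.9 at 1.5, 9.07 and 10.1 at 3.0 and 6.02 and 10.6 at 4.5 mg/kg/day. Hoxb9 fell, with a log2 change of -0.85 ± 0.18 SE (limma adjusted p = 0.0464). Hoxb3 had 144 and 158 in saline against 67.2 and 72.1 at 4.5 mg/kg/day. Hoxb3 fell, with a log2 change of -0.80 ± 0.15 SE (limma adjusted p = 0.0328). Both Hoxa genes were high at 3.0 and 4.5 mg/kg/day and not at 1.5 mg/kg/day. Of 21 imprinted genes 2 rose and 0 fell, beside the same shares of all genes, 2.66% and 3.5%. Dlk1, a growth regulator, had 1407 and 1427 in saline against 3433 and 3170.4 at 4.5 mg/kg/day. Dlk1 rose, with a log2 change of 1.12 ± 0.17 SE (limma adjusted p = 0.0204). Mirg, a noncoding RNA of the same cluster, had 111 and 68 in saline against 271 and 355 at 4.5 mg/kg/day. Mirg rose, with a log2 change of 1.81 ± 0.22 SE (limma adjusted p = 0.0109).

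Fat genes gave the largest rise. Cidea, found on lipid droplets of brown fat, had 71.8 and 33.7 in saline, 121 and 302 at 1.5, 2262 and 2610.4 at 3.0 and 2241 and 675 at 4.5 mg/kg/day. Cidea rose, with a log2 change of 4.23 ± 0.54 SE (limma adjusted p = 0.0122). Its mean log2 level was 5.97 ± 0.49 (SD, n = 2) in saline and 10.20 ± 1.02 (SD, n = 2) at 4.5 mg/kg/day. Replicate 1 of 4.5 mg/kg/day was near the level of 3.0 mg/kg/day, replicate 2 was about 3-fold lower, and both were above every array of saline and 1.5 mg/kg/day. Of 26 adipocyte genes 5 rose and 0 fell, where 2.66% of all genes rose. The adipocyte median was 0.98, but 0.26 and 1.44 without replicates 1 and 2 of 4.5 mg/kg/day. Of 12 brown fat genes 4 rose, beside the same share of all genes (median 1.73, against 0.46 at 1.5 and 3.05 at 3.0 mg/kg/day). Pnpla2, the lipase that starts the breakdown of stored fat, had 282 and 172 in saline, 313 and 844 at 1.5, 1892 and 1893 at 3.0 and 2323 and 1401 at 4.5 mg/kg/day. Pnpla2 rose, with a log2 change of 2.93 ± 0.43 SE (limma adjusted p = 0.0182). Lipe, which acts next in it, had 51.2 and 32.9 in saline, 61.6 and 123 at 1.5, 460.4 and 526 at 3.0 and 651 and 198 at 4.5 mg/kg/day. Lipe rose, with a log2 change of 2.83 ± 0.48 SE (limma adjusted p = 0.0257), but its other probe set went the other way without passing the test. Slc2a4, the insulin-regulated glucose carrier of fat and muscle, had 261 and 162 in saline, 298 and 570.3 at 1.5, 554 and 586 at 3.0 and 911 and 839 at 4.5 mg/kg/day. Slc2a4 rose, with a log2 change of 2.07 ± 0.31 SE (limma adjusted p = 0.0183). Plin4, which coats lipid droplets, had 169 and 58.4 in saline against 526 and 822 at 4.5 mg/kg/day. Plin4 rose, with a log2 change of 2.60 ± 0.47 SE (limma adjusted p = 0.0303). Cox8b, a respiratory chain subunit of brown fat and striated muscle, had 398 and 198 in saline, 611 and 1356 at 1.5, 2712 and 3469 at 3.0 and 3419 and 1553 at 4.5 mg/kg/day. Cox8b rose, with a log2 change of 2.97 ± 0.47 SE (limma adjusted p = 0.0223). Dio2, which activates thyroid hormone, had 24.5 and 18.9 in saline, 23.8 and 53.6 at 1.5, 89.6 and 131 at 3.0 and 112 and 66.2 at 4.5 mg/kg/day. Dio2 rose, with a log2 change of 1.57 ± 0.31 SE (limma adjusted p = 0.039). Ucp1, which makes brown fat give off heat, had 5.97 and 2.78 in saline, 5.12 and 399 at 1.5, 4681 and 4906 at 3.0 and 4025 and 79.6 at 4.5 mg/kg/day and did not pass. Ucp1 had a log2 change of 4.94 ± 1.81 SE (limma adjusted p = 0.156): it was bright on both arrays of 3.0 mg/kg/day and on replicate 1 of 4.5 mg/kg/day. The brown fat list as a whole had median log2 levels of 5.74 and 5.38 in saline, 5.28 and 6.89 at 1.5, 7.62 and 8.18 at 3.0 and 7.75 and 6.55 at 4.5 mg/kg/day, and the part of fat tissue in single genes was not tested. Without 1 of the arrays, the number of adipocyte genes that rose was 8 and 4 without saline replicates 1 and 2 and 5 and 5 without those of 1.5 mg/kg/day. It was 1 and 1 without those of 3.0 and 0 and 4 without those of 4.5 mg/kg/day, and that of brown fat genes was 3 and 1 without saline replicates 1 and 2 and 6 and 6 without those of 1.5 mg/kg/day. It was 1 and 1 without those of 3.0 and 0 and 2 without those of 4.5 mg/kg/day.

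Genes of fuel use were called in both directions. Pdk4, the kinase that holds back glucose oxidation, had 550.4 and 471 in saline, 540.0 and 932 at 1.5, 1853 and 1809 at 3.0 and 2891 and 3172 at 4.5 mg/kg/day. Pdk4 rose, with a log2 change of 2.53 ± 0.24 SE (limma adjusted p = 0.005), with its highest values on the arrays of 4.5 mg/kg/day, and kept its call in all 8 fits. Cpt1a, the gate for fatty acids into mitochondria in liver and gut, fell. Its intensities were 589 and 895 in saline, 231 and 239.7 at 1.5, 294 and 215 at 3.0 and 88.1 and 249.7 at 4.5 mg/kg/day. Cpt1a fell, with a log2 change of -2.03 ± 0.43 SE (limma adjusted p = 0.0444). No other of 20 genes of fatty acid oxidation passed. Of 19 glycolysis and glucose genes 3 rose and 0 fell in the fit of all 8 arrays, where 2.66% of all genes rose. With only the 4 arrays of both groups 0 passed in either direction. The list's median was 0.29, and ran from 0.01 to 0.33 with 1 array left out. Pfkm, an enzyme of glycolysis, had 503 and 391 in saline against 1431 and 1167 at 4.5 mg/kg/day. Pfkm rose, with a log2 change of 1.53 ± 0.21 SE (limma adjusted p = 0.016). Pkm, which makes pyruvate, had 657 and 840.5 in saline against 2163 and 1482 at 4.5 mg/kg/day. Pkm rose, with a log2 change of 1.22 ± 0.18 SE (limma adjusted p = 0.018). The third was Gys1, muscle glycogen synthase (log2 change 1.75 ± 0.27 SE, limma adjusted p = 0.0204). Of 25 respiratory chain genes 2 rose, where 2.66% of all genes rose, and the list's median was 0.51. They were Cox6a2, a subunit of striated muscle (log2 change 1.38 ± 0.25 SE, limma adjusted p = 0.0293), and Ndufb5 (log2 change 0.85 ± 0.16 SE, limma adjusted p = 0.034). Acacb, which makes the malonyl-CoA that blocks fatty acid entry, had 78.4 and 50.5 in saline, 89.1 and 242 at 1.5, 390.4 and 455 at 3.0 and 764 and 356 at 4.5 mg/kg/day. Acacb rose, with a log2 change of 2.87 ± 0.44 SE (limma adjusted p = 0.021). Pik3ip1, an inhibitor of the kinase PI3K, had 92.1 and 45.2 in saline, 86.7 and 306 at 1.5, 123 and 97.4 at 3.0 and 417 and 418 at 4.5 mg/kg/day. Pik3ip1 rose, with a log2 change of 2.53 ± 0.48 SE (limma adjusted p = 0.0346). Of the genes named here, all but Pdk4 lost their calls in at least 1 of the 8 fits, with highest adjusted p from 0.0866 to 0.138.

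Genes that respond to glucocorticoids, the stress steroids, rose in 5 of 23 cases and fell in 0, where 2.66% of all genes rose. The list's median change was 0.83, against 0.38 at 1.5 and 0.14 at 3.0 mg/kg/day. Cdkn1a, the cell cycle inhibitor p21, had 481 and 441 in saline, 908 and 932 at 1.5, 782 and 742 at 3.0 and 1439 and 1548 at 4.5 mg/kg/day. Cdkn1a rose, with a log2 change of 1.70 ± 0.16 SE (limma adjusted p = 0.00461) and kept its call in all 8 fits. Per1, a clock gene that glucocorticoids switch on, had 52.3 and 54.1 in saline, 108 and 273 at 1.5, 60.8 and 68.4 at 3.0 and 325 and 227 at 4.5 mg/kg/day. Per1 rose, with a log2 change of 2.20 ± 0.35 SE (limma adjusted p = 0.0223). It was high at 4.5 mg/kg/day and on both arrays at 1.5 mg/kg/day, and at 3.0 mg/kg/day it was close to saline. Zbtb16, a zinc finger factor, had 223 and 120.3 in saline, 227 and 996 at 1.5, 352 and 243 at 3.0 and 1162 and 1299 at 4.5 mg/kg/day. Zbtb16 rose, with a log2 change of 2.85 ± 0.61 SE (limma adjusted p = 0.0461). Map3k6, a kinase of stress signalling, had 20.1 and 12.3 in saline, 41 and 103 at 1.5, 27.8 and 18.8 at 3.0 and 83.2 and 134 at 4.5 mg/kg/day. Map3k6 rose, with a log2 change of 2.06 ± 0.35 SE (limma adjusted p = 0.0263). Ddit4, an inhibitor of the growth kinase mTOR, had 291 and 268 in saline, 151 and 513 at 1.5, 279 and 239 at 3.0 and 1788 and 987 at 4.5 mg/kg/day (log2 change 2.20 ± 0.48 SE, limma adjusted p = 0.05, rounded from just below the threshold). In these 3 genes replicate 2 of 1.5 mg/kg/day was the highest array outside 4.5 mg/kg/day. Slc10a6, a carrier of sulfated steroids and not on the list, had 32.3 and 14.1 in saline, 89.8 and 224 at 1.5, 29.6 and 27.1 at 3.0 and 202 and 472 at 4.5 mg/kg/day. Slc10a6 rose, with a log2 change of 3.21 ± 0.47 SE (limma adjusted p = 0.0182). With 1 array left out, the number of glucocorticoid response genes that rose was 3 and 2 without saline replicates 1 and 2 and 9 and 9 without those of 1.5 mg/kg/day. It was 1 and 1 without those of 3.0 and 1 and 1 without those of 4.5 mg/kg/day, and the median was 1.61 without saline replicate 2.

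Clock and early response genes overlap with this list. Of 19 circadian clock genes 4 rose, Per1, Usp2, Nfil3 and Cry2, where 2.66% of all genes rose. Usp2, a deubiquitinase, had 134 and 138 in saline, 338 and 681 at 1.5, 458 and 360.4 at 3.0 and 822 and 599 at 4.5 mg/kg/day. Usp2 rose, with a log2 change of 2.33 ± 0.29 SE (limma adjusted p = 0.0113). Nfil3, a repressor, had 67.1 and 96.6 in saline, 97.2 and 211 at 1.5, 82.3 and 77.4 at 3.0 and 212 and 239.5 at 4.5 mg/kg/day. Nfil3 rose, with a log2 change of 1.48 ± 0.31 SE (limma adjusted p = 0.0447). Cry2, which holds back the clock's activators, had 82.5 and 72.4 in saline, 132 and 176 at 1.5, 142 and 115 at 3.0 and 133 and 243 at 4.5 mg/kg/day. Cry2 rose, with a log2 change of 1.25 ± 0.27 SE (limma adjusted p = 0.0482). In these genes replicate 2 of 1.5 mg/kg/day was above replicate 1. Of 26 immediate early genes, which stimuli switch on within minutes, 3 rose, where 2.66% of all genes rose. Nr4a1, a nuclear receptor, had 92.8 and 79.6 in saline, 166 and 227 at 1.5, 164 and 179 at 3.0 and 252 and 220.3 at 4.5 mg/kg/day. Nr4a1 rose, with a log2 change of 1.45 ± 0.16 SE (limma adjusted p = 0.00737). Ccn1, a matrix protein gene, had 231 and 220.3 in saline, 354 and 639 at 1.5, 327 and 348 at 3.0 and 860.1 and 729 at 4.5 mg/kg/day. Ccn1 rose, with a log2 change of 1.83 ± 0.24 SE (limma adjusted p = 0.0126). Zfp36, which speeds the decay of messenger RNA, had 92.9 and 103 in saline against 166 and 169 at 4.5 mg/kg/day. Zfp36 rose, with a log2 change of 0.86 ± 0.19 SE (limma adjusted p = 0.0472). Fos had 179.8 and 159 in saline, 319.6 and 244 at 1.5, 219 and 277 at 3.0 and 323 and 258 at 4.5 mg/kg/day and did not pass. Fos had a log2 change of 0.85 ± 0.22 SE (limma adjusted p = 0.0726), with both arrays at 4.5 mg/kg/day above both saline arrays. With 1 array left out, the number of circadian clock genes that rose was 3 and 2 without saline replicates 1 and 2 and 3 and 3 without those of 1.5 mg/kg/day. It was 1 and 1 without those of 3.0 and 1 and 0 without those of 4.5 mg/kg/day, and that of immediate early genes was 4 and 2 without saline replicates 1 and 2 and 4 and 4 without those of 1.5 mg/kg/day. It was 2 and 2 without those of 3.0 and 0 and 1 without those of 4.5 mg/kg/day. The sources used here do not give the time of day at which the pups were taken.

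**Figure D5:**
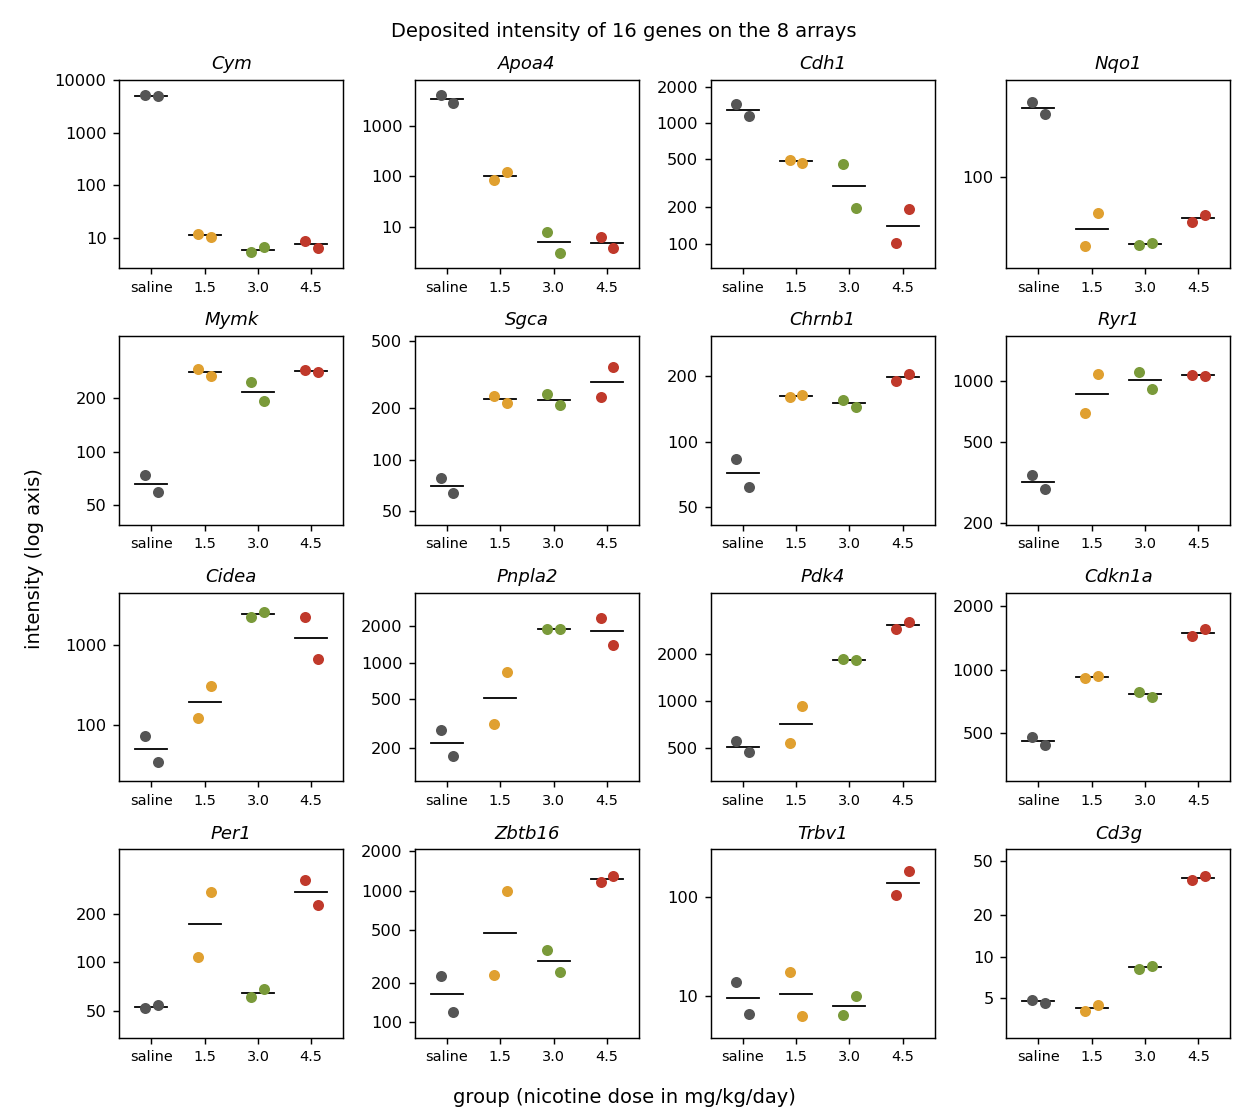
Deposited intensity (log axis, different in each panel) of 16 genes on the 8 arrays, by group (saline and nicotine at 1.5, 3.0 and 4.5 mg/kg/day). Each point is 1 array and each bar the geometric mean of the 2 arrays. Cym, Nqo1 and Mymk are at like levels at all 3 doses, Cidea and Pnpla2 are high at 3.0 and 4.5 mg/kg/day, and Trbv1 and Cd3g are high at 4.5 mg/kg/day.

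Genes of developing T cells rose at the highest dose. Of 29 thymus and T cell genes 8 rose and 0 fell, where 2.66% of all genes rose. The list's median change was 0.41, against 0.05 at 1.5 and -0.00 at 3.0 mg/kg/day. Trbv1, a variable segment of the T cell receptor beta chain, had 13.8 and 6.68 in saline, 17.3 and 6.33 at 1.5, 6.44 and 10.1 at 3.0 and 104 and 180.1 at 4.5 mg/kg/day. Trbv1 rose, with a log2 change of 2.68 ± 0.30 SE (limma adjusted p = 0.00751), while its other probe set went the other way without passing the test. Its mean log2 level was 4.67 ± 0.22 (SD, n = 2) in saline and 7.34 ± 0.51 (SD, n = 2) at 4.5 mg/kg/day. Cd3g, a chain of the CD3 complex of T cells, had 4.81 and 4.62 in saline, 4.02 and 4.41 at 1.5, 8.13 and 8.58 at 3.0 and 36.1 and 38.5 at 4.5 mg/kg/day. Cd3g rose, with a log2 change of 1.45 ± 0.13 SE (limma adjusted p = 0.00363). Rag1, which cuts the receptor genes in immature lymphocytes, had 4.51 and 17.2 in saline, 3.21 and 2.28 at 1.5, 3.12 and 1.73 at 3.0 and 43.2 and 87.4 at 4.5 mg/kg/day. Rag1 rose, with a log2 change of 1.67 ± 0.32 SE (limma adjusted p = 0.0346). Themis, needed for selection in the thymus, had 4.49 and 6.23 in saline, 3.76 and 1.0 at 1.5, 1.14 and 3.34 at 3.0 and 24.4 and 58 at 4.5 mg/kg/day. Themis rose, with a log2 change of 1.44 ± 0.28 SE (limma adjusted p = 0.0377). Cd8b1, a chain of the coreceptor CD8, had 1.07 and 2.35 in saline, 3.35 and 5.86 at 1.5, 2.19 and 1.2 at 3.0 and 14.8 and 15.2 at 4.5 mg/kg/day. Cd8b1 rose, with a log2 change of 0.85 ± 0.14 SE (limma adjusted p = 0.0244). Arpp21, which is not specific to T cells, had 136 and 84.9 in saline, 246 and 225 at 1.5, 293 and 246 at 3.0 and 273 and 328 at 4.5 mg/kg/day. Arpp21 rose, with a log2 change of 1.49 ± 0.23 SE (limma adjusted p = 0.0201) and was higher at every dose. In Trbv1, Cd3g, Rag1, Themis and Cd8b1 both arrays at 4.5 mg/kg/day were the highest of the 8, and the other groups were near the bottom of the scale. The list's median log2 level was 4.61 and 4.60 in saline, 4.56 and 4.54 at 1.5, 4.54 and 4.70 at 3.0 and 5.07 and 5.85 at 4.5 mg/kg/day, with replicate 2 of 4.5 mg/kg/day the highest. When 1 array was left out, the number of thymus and T cell genes that rose was 4 and 6 without saline replicates 1 and 2 and 5 and 5 without those of 1.5 mg/kg/day. It was 2 and 2 without those of 3.0 and 6 and 2 without those of 4.5 mg/kg/day, and Trbv1 and Cd3g were among the genes kept in every fit. Whether the tissue taken at this dose held lymphoid tissue was not tested.

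Among the rest, the kallikrein Egfbp2, of a family made in salivary glands, had 32.1 and 16.9 in saline, 57.2 and 94.2 at 1.5, 78 and 88.3 at 3.0 and 144 and 309 at 4.5 mg/kg/day. Egfbp2 rose, with a log2 change of 2.64 ± 0.35 SE (limma adjusted p = 0.0141) and kept its call in all 8 fits. Mettl21e had 56.8 and 38.9 in saline, 109 and 346 at 1.5, 183 and 203 at 3.0 and 388 and 431 at 4.5 mg/kg/day. Mettl21e rose, with a log2 change of 2.87 ± 0.42 SE (limma adjusted p = 0.0183). Blood vessel genes rose in 2 of 26 cases and fell in 1, where 2.66% of all genes rose and 3.5% fell. Those that rose were Pecam1, an adhesion protein of endothelium (log2 change 1.34 ± 0.24 SE, limma adjusted p = 0.0303), and the transcription factor Sox18 (log2 change 0.88 ± 0.15 SE, limma adjusted p = 0.0245). Esm1 fell with low intensities throughout (log2 change -0.77 ± 0.14 SE, limma adjusted p = 0.0321). In the myeloid, interferon and MHC and B cell lists 1 gene of 24, 1 of 26 and 1 of 19 fell, where 3.5% of all genes fell, and in the last Rag1, also a T cell gene, rose. Cx3cr1, the fractalkine receptor, had 57.1 and 56.9 in saline against 10.3 and 14.1 at 4.5 mg/kg/day. Cx3cr1 fell, with a log2 change of -1.25 ± 0.22 SE (limma adjusted p = 0.0295). Ifit1 changed by -1.85 ± 0.38 and the B cell adaptor Blnk by -1.96 ± 0.28 (limma adjusted p = 0.0438 and 0.0174). Tfrc, the transferrin receptor, had 1178 and 1664 in saline, 552 and 716 at 1.5, 1379 and 1384 at 3.0 and 411 and 493 at 4.5 mg/kg/day. Tfrc fell, with a log2 change of -1.61 ± 0.22 SE (limma adjusted p = 0.0155) and was low at 4.5 and 1.5 mg/kg/day. No gene of the nerve, brain, tooth, ribosome, lung or heart lists passed in the fit of all 8 arrays. With 1 array left out, the median change ran from -1.38 to 0.63 for nerve and from -0.49 to 0.15 for brain genes. It ran from 0.68 to 1.18 for lung and from 0.35 to 0.65 for heart genes. The missing calls do not show equal levels. The SD of the lung list's median log2 level (n = 2) was 0.08 in saline and 0.34 at 4.5 mg/kg/day. At 1.5 and 3.0 mg/kg/day it was 3.06 and 1.29, and these groups entered the spread of the test. Scgb3a2, a secretoglobin of airways, had 7.03 and 4.98 in saline, 8.89 and 1706 at 1.5, 1328 and 1323 at 3.0 and 254 and 1258 at 4.5 mg/kg/day. Scgb3a2 had a log2 change of 4.78 ± 1.74 SE (limma adjusted p = 0.153). Sftpc, surfactant protein C, had 33.5 and 12.6 in saline, 8.62 and 4727 at 1.5, 5671 and 2109 at 3.0 and 685 and 697 at 4.5 mg/kg/day. Sftpc had a log2 change of 4.29 ± 2.06 SE (limma adjusted p = 0.255).

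The highest dose was also set against the other doses directly, in the fit of all 8 arrays, so that the saline arrays entered the scaling and the spread. Against 3.0 mg/kg/day 0 of 34945 probe sets passed (0.0%), with 1731 at an unadjusted p under 0.05 and a smallest limma adjusted p of 0.418. Against 1.5 mg/kg/day 0 passed (0.0%), with 3027 at an unadjusted p under 0.05 and a smallest limma adjusted p of 0.232. Without replicate 1 or 2 of 1.5 mg/kg/day, 24 and 58 probe sets passed against that dose. Scaled and fitted on the 6 nicotine arrays alone, 0 probe sets passed against either dose, with 2025 at an unadjusted p under 0.05 and a smallest limma adjusted p of 0.608 against 3.0 mg/kg/day, and 3517 and 0.331 against 1.5 mg/kg/day. In that fit the log2 change from 3.0 to 4.5 mg/kg/day was 2.73 for Trbv1 and 1.19 for Cd3g (limma adjusted p = 0.608 for both). With 2 arrays a group, large differences remained below the threshold, and the missing calls do not show equal levels. For Trbv1 the change from 3.0 to 4.5 mg/kg/day was 2.75 ± 0.30 (limma adjusted p = 0.418), and for Cd3g 1.21 ± 0.13 (limma adjusted p = 0.418). For Per1 it was 1.85 ± 0.35 (limma adjusted p = 0.965) and for Cdkn1a 1.0 ± 0.16 (limma adjusted p = 0.805). For Mymk, Cym and Nqo1 it was 0.42, 0.11 and 0.59, each with an SE of 0.17, 0.14 and 0.24. From 1.5 to 4.5 mg/kg/day the log2 change of Apoa4 was -2.47 ± 0.23 (limma adjusted p = 0.232), that of Pdk4 1.90 ± 0.24 (limma adjusted p = 0.512) and that of Cidea 2.47 ± 0.54 (limma adjusted p = 0.512). Against the shared saline arrays, 844 probe sets passed at 1.5 mg/kg/day (2.42%) and 974 at 3.0 mg/kg/day (2.79%), beside the 1857 at 4.5 mg/kg/day. Since the 3 comparisons use the same saline arrays, these counts are given side by side, and their difference was not tested.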

How the data were processed

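The deposited values were the authors' processed intensities of 45101 Affymetrix probe sets on 8 arrays, on a linear scale. The authors' summary and scaling steps and the genome build were not given in the sources used here. Array medians ran from 20.7 to 25.4 as deposited. The labels gave each array's dose. Of the probe sets, 34945 named 1 gene, 932 several, 9160 none and 64 were controls, and 34741 of the first group were found by gene identifier in a RefSeq gene table. The values were taken to log2(intensity + 16), quantile normalized and fitted in R 4.3.3 with limma 3.58.1 (lmFit, eBayes, two-sided) as 4 group means over 8 arrays, with 4 residual degrees of freedom. Doses were compared within this fit. The fit was tested on simulated data with known changes. The simulation drew independent normal noise and placed changes only in probe sets above the median level. It did not model arrays that hold genes of other tissues, so it cannot vouch for the calls made here. Each gene stood as its brightest probe set over the 8 arrays. Named genes were the 14 largest rises and 14 largest falls among called genes whose groups did not overlap, up to 6 members of each list with the smallest p, and a list of single genes. The gene lists, 56 in all, and the comparison were chosen with earlier results of these data known, so list counts are descriptions. Replicate numbers did not pair the arrays, as the correlations of same-numbered deviations ran from -0.191 to 0.267. Alternatives changed the scaling, the added constant, a level filter, the probe sets, the model and the arrays, and the counts of list members under them, and the fit of the 6 nicotine arrays alone, were added after the data had been seen.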

Additional observations from a re-analysis of the deposited data

How the results depend on the processing

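The count of probe sets that differed between 4.5 mg/kg/day and saline, 1857 with 807 higher and 1050 lower, fell with an added constant of 1 to 909 (290 and 619), with 1 probe set per gene to 958 (397 and 561) and with array weights to 950 (347 and 603). With only the 4 arrays of both groups it was 301 (51 and 250), and with a minimum change of 0.5 on the log2 scale 327 (56 and 271). Without quantile normalization it was 1957 (450 and 1507), and without the 2 arrays highest in liver genes 2492, 824 higher and 1668 lower. With 1 array left out it ran from 275 to 2305, higher from 84 to 859 and lower from 191 to 1446. The cause was not tested, beyond fewer arrays or probe sets in those fits built that way. Against 1.5 mg/kg/day the count with 1 array left out ran from 0 to 58, higher from 0 to 6 and lower from 0 to 52. Against 3.0 mg/kg/day it was 0 in each alternative run.

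With the replicate number as a block, a pairing that the arrays did not bear out, the count against saline was 1042, 361 higher and 681 lower.

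Of 331 named genes 12 changed direction in some setting, none of them called. Without the 2 arrays highest in liver genes the log2 changes were -0.29 for Col11a1, -0.039 for Ibsp, 0.30 for Hhex, 0.19 for Slc26a4 and -0.095 for Twist1. Centred on array medians they were 0.040 for Rpl7, 0.063 for Rpl8 and 0.032 for Rpl4, and with an added constant of 1 Trp63 was at 0.041. With 1 array left out the log2 change ran from -0.29 to 1.73 for Col11a1, from -0.038 to 2.69 for Ibsp, from -1.52 to 0.30 for Hhex, from -0.60 to 0.20 for Slc26a4 and from -0.094 to 1.03 for Twist1. It ran from -3.04 to 0.080 for Snap25, from -0.93 to 0.87 for Trp63, from -0.23 to 1.55 for Rps18 and from -0.11 to 0.59 for Klk4. The cause was not tested. Only large changes were detectable with 2 arrays a group, and many genes were dimmer than the added constant.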

Other observations

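Genes in the next sentences were chosen after their values had been seen, and no test beyond the fit was made for them. The caseins Csn2 and Csn1s1, known as milk proteins, were bright on the saline arrays only. Csn2 had intensities of 647 and 254 in saline, 4.43 and 1.86 at 1.5, 1.75 and 3.86 at 3.0 and 1.07 and 14 at 4.5 mg/kg/day (log2 change -4.16 ± 0.45 SE, limma adjusted p = 0.00702), and Csn1s1 had 403 and 207 in saline, 1.62 and 5.57 at 1.5, 3.14 and 6.17 at 3.0 and 1.0 and 4.06 at 4.5 mg/kg/day (log2 change -4.00 ± 0.31 SE, limma adjusted p = 0.00234). Hnf4a, a transcription factor of gut, liver and kidney, had 696 and 826 in saline, 20.8 and 151 at 1.5, 3.02 and 4.32 at 3.0 and 3.21 and 2.24 at 4.5 mg/kg/day (log2 change -5.32 ± 0.59 SE, limma adjusted p = 0.00728), and Tff3, a trefoil peptide of goblet cells, had 1247 and 431 in saline, 363 and 66.7 at 1.5, 7.34 and 4.49 at 3.0 and 5.39 and 4.49 at 4.5 mg/kg/day (log2 change -5.12 ± 0.79 SE, limma adjusted p = 0.0207). In both genes the arrays at 1.5 mg/kg/day lay between saline and the higher doses.

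Prss16, a protease of the thymus, had 18.6 and 12.4 in saline, 7.94 and 9.5 at 1.5, 10.6 and 4.71 at 3.0 and 38.9 and 63.5 at 4.5 mg/kg/day (log2 change 1.20 ± 0.22 SE, limma adjusted p = 0.0321), and Thrb, a thyroid hormone receptor, had 8.27 and 10.1 in saline, 3.78 and 6.26 at 1.5, 3.7 and 4.43 at 3.0 and 23.4 and 26.4 at 4.5 mg/kg/day (log2 change 0.78 ± 0.14 SE, limma adjusted p = 0.0325). As in the T cell genes, both arrays at 4.5 mg/kg/day were the highest of the 8, and both genes are dim.

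Some genes stood out at 3.0 and not at 4.5 mg/kg/day. Elovl3, a fatty acid elongase of brown fat and skin glands, had 19.3 and 7.17 in saline, 19.97 and 8.05 at 1.5, 168 and 338 at 3.0 and 15 and 23.4 at 4.5 mg/kg/day (log2 change 0.38 ± 0.37 SE, limma adjusted p = 0.57). Mmd had 477 and 516 in saline, 221 and 202 at 1.5, 740.3 and 954 at 3.0 and 262 and 161 at 4.5 mg/kg/day (log2 change -1.08 ± 0.24 SE, limma adjusted p = 0.0491). Its log2 change against saline was 0.74 ± 0.24 SE at 3.0 and -1.08 ± 0.24 SE at 1.5 mg/kg/day, and neither passed (limma adjusted p = 0.145 and 0.0696). Rps18, a ribosomal protein gene, was alike on 7 arrays and far higher on replicate 2 of 4.5 mg/kg/day, with 3353 and 3328 in saline, 3141 and 3459.6 at 1.5, 3547 and 3501 at 3.0 and 3368 and 19254 at 4.5 mg/kg/day (log2 change 0.62 ± 0.48 SE, limma adjusted p = 0.473).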
